A study of Mus musculus with 13 samples.

Results

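The replication-dependent histone cluster genes encode the linker histone H1 and the core histones H2A, H2B, H3 and H4 that package newly made DNA. Members were all genes in the deposited table whose mouse symbol begins with Hist1h, Hist2h, Hist3h or Hist4h, and the class was read from the symbol. This gave 61 of 13222 genes, of which 4 were H1, 17 H2a, 17 H2b, 12 H3 and 11 H4. On the mm10 genome, 51 belonged to the Hist1 group on chromosome 13, 9 to the Hist2 group on chromosome 3 and 1, *Hist3h2a*, lay on chromosome 11. GENCODE M21 annotates 70 such symbols, and the 9 that were not in the table were *Hist1h1a*, *Hist1h1t*, *Hist1h2aa*, *Hist1h2af*, *Hist1h2aj*, *Hist2h4*, *Hist3h2ba*, *Hist3h2bb-ps* and *Hist4h4*. *Hist1h2al* is annotated as a processed pseudogene away from the main cluster and was kept, since its symbol meets the rule.

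All samples were 4T1-Thy1.1 cells, a murine breast cancer line that carries a Thy1.1 transgene, grown, by the sample records, in DMEM/F12 with FBS, where the authors' methods name RPMI for 4T1 cells. The 4 groups were control (no agent, n = 3), doxorubicin (DOX) at 200 ng/mL (n = 4), recombinant mouse IL-17A at 25 ng/mL (n = 3) and both agents at these doses (DOX+IL-17A, n = 3), each for 48 h before lysis. Reads of 75 bases came from the 3′ ends of poly(A) RNA, and between 4445592 and 16930600 reads per library fell on listed genes. The authors scaled read counts by TMM, and the deposited signal is called the value here. Values are listed by replicate, which is 1, 3 and 5 for control, 1 to 4 for DOX, and 2, 3 and 5 for IL-17A and for DOX+IL-17A.

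As background, DOX is an anthracycline that traps topoisomerase II on DNA, and IL-17A is a cytokine that acts on epithelial cells through a receptor of its own. Cells make most core and H1 histone protein in S phase, when NPAT at the histone loci turns on transcription after phosphorylation by cyclin E with CDK2. Most replication-dependent histone mRNAs end in a stem-loop bound by SLBP and lack a poly(A) tail, so libraries primed on poly(A) see mainly those molecules that carry a run of adenines.

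The stem-loop is shown because it is the feature that sets these mRNAs apart. The histone stem-loop, a 16-base element, was searched by its base pattern on the transcript strand of GENCODE M21 transcripts. It was found in at least 1 transcript of 42 of the 61 members (68.9%), and in 208 of 141767 transcripts of all genes (0.147%). The first share is by gene and the last by transcript, so the units differ. The matches of 6 members with 5 bases on either side are given here 5′ to 3′, with the stem-loop in capitals.
Hist1h1e: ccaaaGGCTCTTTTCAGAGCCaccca
Hist1h2ao: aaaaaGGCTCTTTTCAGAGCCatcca
Hist1h2ae: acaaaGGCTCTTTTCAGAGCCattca
Hist1h3c: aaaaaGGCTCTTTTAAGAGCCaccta
Hist1h4d: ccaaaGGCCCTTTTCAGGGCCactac
Hist3h2a: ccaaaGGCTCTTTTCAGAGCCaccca
By class, 3 of 4 H1, 11 of 17 H2a, 9 of 17 H2b, 9 of 12 H3 and 10 of 11 H4 members held a match. In the annotation, the *Hist1h2ao* transcript ends 31 bases after the stem-loop, whereas those of *Hist1h1e* and *Hist3h2a* run on for 1153 and 1643 bases. Some members with no match have short annotated transcripts (393 bases for *Hist1h2ai*, 381 for *Hist1h2bl*, 411 for *Hist1h3h* and 312 for *Hist1h4k*), while others are long (2620 for *Hist2h2be*). A stem-loop past an annotated end would not be found, so no match does not show that a gene lacks it. A match is a description, not a site or a cause.

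Control replicate 1 stood apart. In it 32.4% of genes tested were more than 2-fold from the mean of the other controls, while the same share was 14.7% for control replicate 3 and 7.80% for control replicate 5, each against its own group. Among the other groups this share ran from 2.52% to 14.3%, and IL-17A replicate 5 was at 14.3%. Across genes, which are not independent replicates, Spearman's rho was 0.885 and 0.910 between control replicate 1 and the other controls and 0.981 between those. The counts of histone genes called are therefore also given without control replicate 1.

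The label of a breast cancer cell line was checked against epithelial markers. *Krt7*, *Krt8*, *Krt18*, *Epcam* and *Cdh1* were present in every library, with *Krt7* the most abundant on average, and *Thy1* ranged from 63.6 to 178.6. The summed value of the 5 epithelial genes was 1438 to 2129.5 in the control and IL-17A libraries and 769.8 to 983.6 in the libraries with DOX. Those ranges did not overlap, nor did those of 4 of the 5 genes, while *Cdh1* overlapped (11.6 in control replicate 3, 19.2 in DOX replicate 3). The sum of the immune markers *Cd68* and *Ptprc*, most of it *Cd68* except in control replicate 1, was 1.52, 6.33 and 4.60 in control, 13.07, 6.13 and 4.92 with IL-17A, 15.4, 19.4, 10.5 and 10.9 with DOX and 8.79, 9.73 and 9.86 with DOX+IL-17A. Both sets of markers thus moved with DOX against control, and their part in the histone result was not tested. DOX replicate 1 held muscle RNA (summed value of 5 genes 189.8, with *Myh4* the most abundant) and RNA of red blood cell markers (3 of 5 genes listed, sum 66.5, with *Hba-a2* the most abundant), where no other library exceeded 28.1 and 14.4. The sum of 3 fibroblast genes, with *Col1a1* the most abundant on average, was 105.2 in control replicate 1, 41.1 and 46.2 in the other controls and at most 60.4 elsewhere. The endothelial markers *Pecam1* and *Cdh5* were not listed.

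Histone genes took a small share of the reads on listed genes, and the share was lowest in the libraries with DOX. It was 0.802%, 0.221% and 0.287% in control and 0.169%, 0.210% and 0.456% in IL-17A libraries. With DOX it was 0.0435%, 0.0358%, 0.0568% and 0.0489%, and with DOX+IL-17A 0.0521%, 0.0459% and 0.0430%. Every library with DOX was below every library without it. These shares count the reads of both *Hist1h2ao* and *Hist1h2ap*, which were nearly equal. In bulk samples such as these, fewer cells in S phase and less histone RNA per cell cannot be told apart.

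The same division was seen in most classes when values were summed. The H1 sum was 431, 297 and 326 in control, 299, 278 and 335 with IL-17A, 38.0, 32.6, 55.6 and 56.4 with DOX and 35.8, 56.6 and 34.6 with DOX+IL-17A. The H2a sum was 8269.6, 1878 and 2536 in control, 1440.5, 1775 and 4686 with IL-17A, 313, 259.8, 424 and 366 with DOX and 385, 319 and 368 with DOX+IL-17A. For both classes the libraries with DOX were all lower than those without it, and control replicate 1 and IL-17A replicate 5 were the high libraries for H2a. This sum holds both *Hist1h2ao* and *Hist1h2ap*, whose reads were nearly equal, and with *Hist1h2ap* left out it was 5333, 1215 and 1626 in control, 973, 1143 and 2913 with IL-17A, 217, 174, 280.2 and 243 with DOX and 236, 212 and 244 with DOX+IL-17A. H2b sums were 77.6, 61.2 and 74.7 in control, 83.5, 70.3 and 64.7 with IL-17A, 33.1, 21.2, 17.3 and 18.3 with DOX and 26.6, 24.0 and 7.86 with DOX+IL-17A. H4 sums were 132, 33.1 and 31.1 in control, 47.0, 26.7 and 51.8 with IL-17A, 22.5, 24.1, 9.51 and 14.4 with DOX and 12.1, 12.8 and 14.2 with DOX+IL-17A. Neither class overlapped between libraries with and without DOX. H3 was the exception, with sums of 26.6, 12.8 and 21.6 in control, 20.1, 29.1 and 12.5 with IL-17A, 3.46, 8.87, 8.53 and 3.67 with DOX and 13.9, 0.695 and 9.24 with DOX+IL-17A. There DOX+IL-17A replicate 2 was above control replicate 3 and IL-17A replicate 5.

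H2a members made up 74.95% to 92.5% of the summed histone value, with *Hist1h2ao* and *Hist1h2ap* both counted. This share was lowest in DOX replicate 2 and highest in control replicate 1. With *Hist1h2ap* and *Hist1h2br* left out, the H2a sum was 174 of 260 in the former and 5333 of 5993 in the latter. The mean of the controls over the mean of the DOX libraries was 7.70 for the H1 sum, 12.4 for H2a, 3.16 for H2b, 3.31 for H3 and 3.71 for H4. Without control replicate 1 the H2a ratio was 6.48 and the H4 ratio 1.82. IL-17A over DOX+IL-17A gave 7.19 for H1, 7.37 for H2a, 3.74 for H2b, 2.58 for H3 and 3.21 for H4. Without IL-17A replicate 5 the H2a ratio was 4.50, and the H3 ratio ran from 1.77 to 4.13 with single libraries left out. These sums are descriptions and were not tested.

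**Figure D1:**
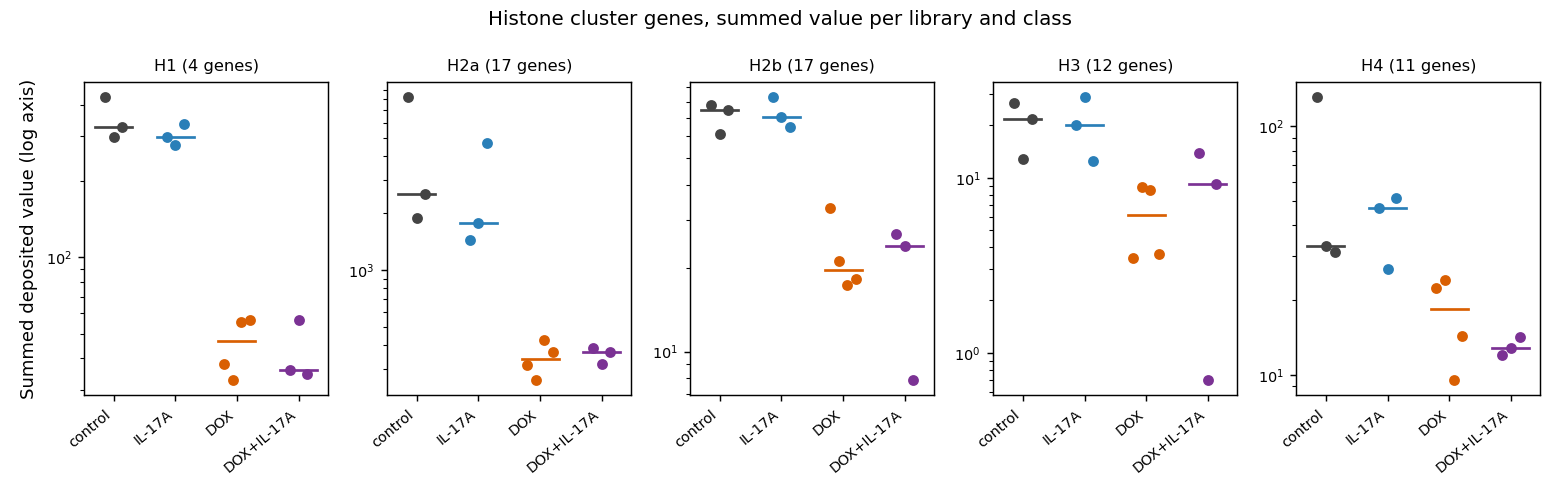
Summed value per library (log axis) for the 5 histone classes, with 1 dot per library and the group median as a bar. The libraries with DOX lie below those without it for H1, H2a, H2b and H4, and for H3 the value of 13.9 in DOX+IL-17A replicate 2 lies above 12.8 in control replicate 3.

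The comparison of DOX with control asks how the drug alone changed these genes. A gene was called when limma gave an adjusted p (Benjamini-Hochberg over 12319 genes tested) under 0.05 and a fold change above 2. Of 59 histone genes tested, 31 fell and 0 rose with DOX, where 15.3% of all genes tested were called, 6.18% as lower and 9.15% as higher. At an unadjusted p under 0.05 there were 46, against 36.5% of all genes, and voom with limma, edgeR's quasi-likelihood test and DESeq2 also gave 0 that rose, with 25, 28 and 31 that fell. The members that fell were 4 of 4 H1, 15 of 17 H2a, 8 of 17 H2b, 1 of 10 H3 and 3 of 11 H4. Values of the groups did not overlap for 39 of 59, all lower with DOX, against 15.2% of all genes tested that were lower without overlap. The median log2 fold change of the 59 was -1.29, beside 0.09 for all genes tested, and by class it was -2.92 for H1, -3.08 for H2a, -1.11 for H2b, -1.0 for H3 and -1.01 for H4. The pseudocount of 1 shrinks changes at low values. With 0.1 in its place the median of the 59 was -2.41 and the class medians -3.20, -3.32, -2.62, -1.94 and -1.54 in the same order, and with voom they were -2.54 and -3.15, -3.27, -2.58, -1.88 and -1.33. Without control replicate 1, 26 were called, 24 of them among the 31, and the median was -1.11.

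In cells given both agents, compared with control, 29 of 59 histone genes fell and 0 rose, where 12.9% of all genes were called, 5.95% as lower and 6.95% as higher. Voom, edgeR and DESeq2 gave 21, 29 and 31 that fell and 0 that rose, and 45 histone genes had an unadjusted p under 0.05, against 32.5% of all genes. The 29 were 4 H1, 17 H2a, 3 H2b, 1 H3 and 4 H4 genes. Among the H2a and H2b genes, *Hist1h2bj* lost this call in 8 of 22 alternatives, *Hist1h2ak* in 7, *Hist2h2ac* in 3 and *Hist3h2a* in 2. Groups did not overlap for 39, against 14.5% of all genes that were lower without overlap. The median was -1.48 (all genes 0.04), and -2.74 with a pseudocount of 0.1. Without control replicate 1 the count was 27, with 25 of the 29 among them, and the median was -1.20.

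DOX+IL-17A against IL-17A asks what DOX did in the presence of the cytokine, and uses none of the control libraries as its reference. There 28 of 59 histone genes fell and 0 rose, where 9.84% of all genes were called, 4.92% in each direction. The other tools gave 26 (voom), 23 (edgeR) and 28 (DESeq2) that fell and 0 that rose, and 38 had an unadjusted p under 0.05, against 28.5% of all genes. The 28 were 4 H1, 16 H2a, 7 H2b, 0 H3 and 1 H4 genes. The least stable of these calls was on *Hist2h2ab*, lost in 13 of 22 alternatives. Calls on 4 H2b genes were also lost often: *Hist1h2bl* (12 of 22), *Hist1h2bk* (8 of 22), *Hist1h2bb* (7 of 21) and *Hist1h2ba* (6 of 21). Groups did not overlap for 38, against 15.5% of all genes that were lower without overlap. The median was -1.38 (all genes 0.02), and -2.49 with a pseudocount of 0.1. Without control replicate 1, which enters only through the shared estimate of spread, the count was 35, which included all 28. All 3 same-numbered pairs of these groups deviated together (correlations 0.168 to 0.355 with group means removed). The number was used as a block in a fit of all 13 libraries, not of these groups alone. With this block the count was 32, the 28 and *Hist1h2bc* (-1.88), *Hist1h4d* (-1.50), *Hist1h4m* (-1.46) and *Hist1h4n* (-1.38). The comparisons with DOX share libraries, so their values are given side by side and their overlap is not used as a result.

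**Figure D2:**
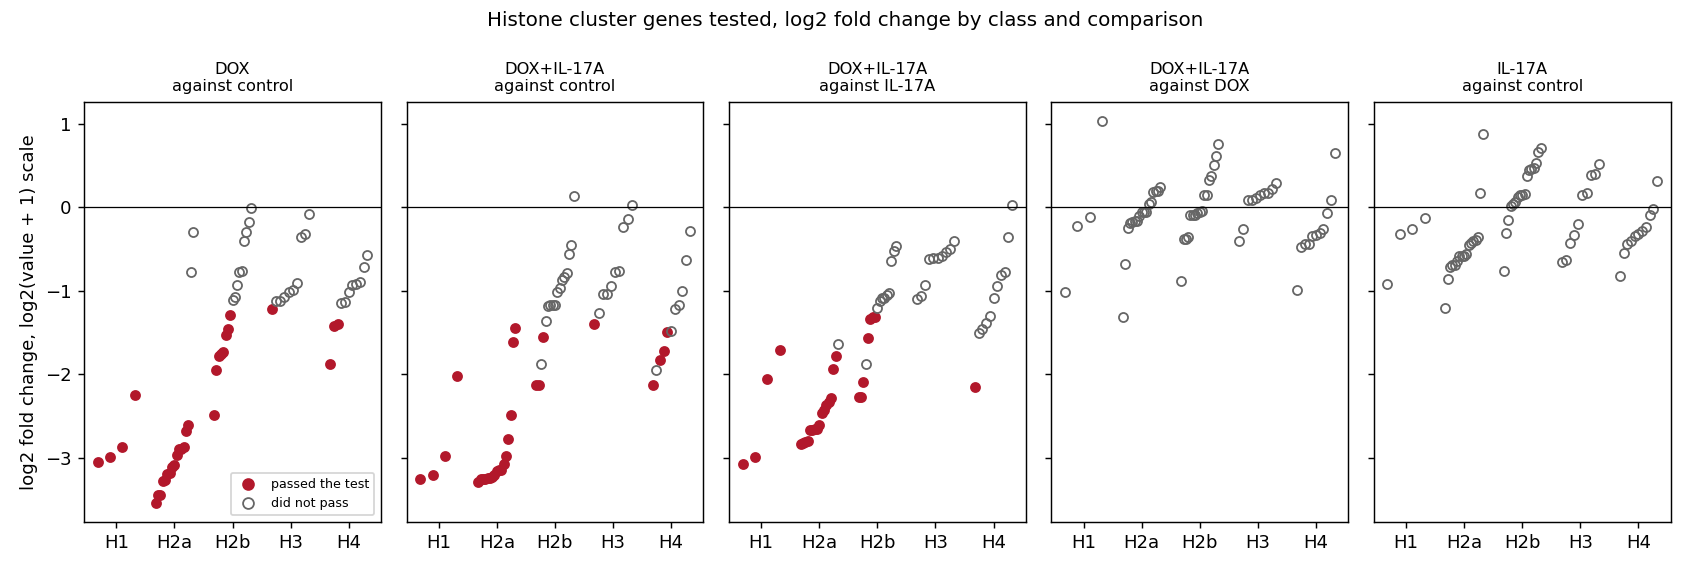
Log2 fold change on the log2(value + 1) scale of each histone gene tested (1 dot per gene) by class, in 5 comparisons, with filled dots for genes that passed the test. In the 3 comparisons of DOX with no DOX, H1 and H2a lie lowest on this scale, with class medians of -2.92 and -3.08 for DOX against control. By voom against IL-17A the H2b median (-3.46) was below those of H1 (-2.86) and H2a (-2.78).

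H1 linker histones bind where DNA enters and leaves the nucleosome. *Hist1h1e*, the H1 gene with the highest mean value, was at 289, 225 and 223 in control and 229, 221 and 219 in IL-17A libraries, 24.2, 20.3, 41.7 and 39.4 with DOX and 15.3, 43.8 and 25.0 with DOX+IL-17A. *Hist1h1c* was at 72.1, 30.4 and 41.6 in control and 29.1, 25.0 and 71.7 in IL-17A libraries, 8.21, 9.96, 7.13 and 9.93 with DOX and 8.18, 3.57 and 1.69 with DOX+IL-17A. For both, each library with DOX was below each library without it. *Hist1h1b* was at 36.5, 33.7 and 37.6 in control and 31.3, 26.6 and 28.5 in IL-17A libraries, 3.30, 1.75, 4.19 and 5.37 with DOX and 10.8, 7.84 and 6.24 with DOX+IL-17A. *Hist1h1d* was at 33.3, 8.04 and 23.6 in control and 9.80, 5.19 and 15.8 in IL-17A libraries, 2.25, 0.657, 2.66 and 1.70 with DOX and 1.43, 1.39 and 1.69 with DOX+IL-17A. Again no library with DOX reached a library without it, and *Hist1h1b* was higher in all 3 DOX+IL-17A libraries than in the 4 DOX libraries.

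On the log2 scale, *Hist1h1e* fell by 2.98 with DOX against control (SE 0.309, adjusted p 2.41e-05), a fold change of 7.91 lower. The log2 fold change of *Hist1h1b* was -3.05 (SE 0.307, adjusted p 1.85e-05), that of *Hist1h1d* -2.87 (SE 0.462, adjusted p 0.000733) and that of *Hist1h1c* -2.24 (SE 0.435, adjusted p 0.00247). With both agents against control, the values in the same order of *Hist1h1e*, *Hist1h1b*, *Hist1h1d* and *Hist1h1c* were -3.20, -2.02, -2.98 and -3.25. Against IL-17A they were -3.07 (SE 0.330, adjusted p 7.38e-05), -1.70 (SE 0.329, adjusted p 0.00447), -2.06 (SE 0.494, adjusted p 0.0141) and -2.99 (SE 0.465, adjusted p 0.00126). The call on *Hist1h1d* against IL-17A was not made by voom (-2.68, adjusted p 0.0558) or without IL-17A replicate 5, where its log2 fold change was -1.71 (adjusted p 0.0647).

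H2A pairs with H2B in the outer part of the nucleosome core. *Hist1h2ao* had the highest mean value of all members, at 2936, 663 and 911 in control and 468, 632 and 1773 in IL-17A libraries, 96.3, 86.4, 144 and 123 with DOX and 149, 108 and 124 with DOX+IL-17A. *Hist1h2ap* had nearly the same reads in every library, with a total of 73946 against 73954 for *Hist1h2ao* and a difference of at most 6 reads in a library. The 2 genes cannot be read as separate measurements. *Hist1h2ae* was at 286, 60.3 and 82.6 in control and 44.7, 52.2 and 159.9 in IL-17A libraries, 5.39, 7.99, 12.6 and 10.9 with DOX and 9.82, 9.93 and 12.2 with DOX+IL-17A. *Hist1h2ag* was at 195, 64.2 and 75.2 in control and 55.8, 58.5 and 126 in IL-17A libraries, 6.84, 7.55, 12.7 and 11.2 with DOX and 10.2, 8.34 and 10.9 with DOX+IL-17A, and *Hist1h2ah* at 144, 40.6 and 51.5 in control and 35.8, 40.1 and 90.7 in IL-17A libraries, 5.55, 4.38, 9.79 and 7.51 with DOX and 6.54, 4.97 and 7.55 with DOX+IL-17A. None of these genes overlapped between libraries with and without DOX, and in each of them control replicate 1 was highest and IL-17A replicate 5 next.

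On the log2(value + 1) scale *Hist1h2ae* had the lowest log2 fold change of all members with DOX against control, -3.53 (SE 0.491, adjusted p 0.000249). On scales that shrink low values less, H2b genes were lower, with *Hist1h2bk* at -4.63 by voom, *Hist1h2bn* at -5.35 by edgeR and -5.72 by DESeq2 and *Hist2h2bb* at -4.35 with a pseudocount of 0.1. *Hist1h2ao* was at -3.45 (SE 0.457, adjusted p 0.00018), a fold change of 10.9 lower, with *Hist1h2ap* at -3.45. Leaving out control replicate 1 moved these to -2.87 for *Hist1h2ae* and -2.81 for both *Hist1h2ao* and *Hist1h2ap*. *Hist1h2ag* was at -3.27 (SE 0.379, adjusted p 5.79e-05) and *Hist1h2ah* at -3.18 (SE 0.422, adjusted p 0.00018). For DOX+IL-17A against control these were -3.29 for *Hist1h2ae*, -3.26 for *Hist1h2ao*, -3.20 for *Hist1h2ag* and -3.23 for *Hist1h2ah*, and the first pair was at -2.62 and -2.62 when control replicate 1 was left out. Against IL-17A they were -2.66 (SE 0.525, adjusted p 0.00526), -2.67 (SE 0.488, adjusted p 0.00317), -2.81 (SE 0.405, adjusted p 0.00078) and -2.83 (SE 0.451, adjusted p 0.00145) in the same order. Over all 17 H2a genes the log2 fold change ranged from -3.53 to -0.30 with DOX against control, from -3.29 to -1.44 with both agents against control and from -2.83 to -1.63 against IL-17A.

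*Hist1h2ak* and *Hist3h2a* were the H2a genes not called with DOX alone, and both are described after their values were seen. *Hist3h2a*, the sole member on chromosome 11 (58954685 to 58956830, plus strand), was at 5.92, 17.3 and 19.9 in control and 12.3, 15.9 and 15.8 in IL-17A libraries, 9.50, 11.3, 12.7 and 8.14 with DOX and 2.86, 4.47 and 3.43 with DOX+IL-17A. Here control replicate 1 was below all DOX libraries, and the 3 DOX+IL-17A libraries were the lowest of all 13. *Hist1h2ak* was at 1.35, 3.17 and 2.71 in control and 7.77, 4.56 and 3.69 in IL-17A libraries, 1.93, 0.109, 1.12 and 1.07 with DOX and 0.204, 0 and 0.499 with DOX+IL-17A. Its control and DOX libraries overlapped, and the 3 IL-17A libraries were the highest.

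H2B genes had lower values and were more mixed. *Hist2h2be* was at 0.846, 32.1 and 25.7 in control and 11.5, 25.0 and 12.2 in IL-17A libraries, 8.13, 8.43, 9.51 and 12.0 with DOX and 8.998, 9.43 and 3.87 with DOX+IL-17A. Control replicate 1 was the lowest of all libraries for this gene and the other controls the highest, so the groups overlapped and it was not called. Without control replicate 1 it was called in all 3 comparisons of DOX with no DOX, at -1.51 (adjusted p 0.00928) with DOX against control, -1.90 (adjusted p 0.00365) with both agents against control and -1.03 (adjusted p 0.0484) against IL-17A. *Hist1h2bc* was at 6.43, 7.67 and 9.55 in control and 11.2, 14.0 and 15.3 in IL-17A libraries, 15.4, 9.31, 4.19 and 2.06 with DOX and 10.2, 2.18 and 0.687 with DOX+IL-17A. DOX replicate 1 was the highest of all libraries there, and its control and DOX libraries overlapped. *Hist2h2bb* was at 22.2, 2.37 and 5.30 in control and 4.28, 1.57 and 6.48 in IL-17A libraries, 0.966, 0, 0 and 0.984 with DOX and 2.25, 0.199 and 1.56 with DOX+IL-17A. Its DOX libraries were all below the controls, while DOX+IL-17A replicate 2 was above IL-17A replicate 3. *Hist1h2br* was at 8.12, 2.86 and 4.71 in control and 6.65, 4.87 and 5.09 in IL-17A libraries, 0.402, 0.438, 1.40 and 0.894 with DOX and 0.613, 0.497 and 0 with DOX+IL-17A, and its reads were nearly those of *Hist1h2bq* (324 and 323 in all). Each library with DOX was lower than each library without it for *Hist1h2br*.

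With DOX against control, the log2 fold change of *Hist1h2br* was -1.75 (SE 0.364, adjusted p 0.0038) and that of *Hist2h2bb* -2.49 (SE 0.591, adjusted p 0.00813). The log2 fold change of *Hist2h2bb* was -1.71 without control replicate 1 and -3.10 without control replicate 3. *Hist2h2bb* was not called by voom (-4.11 (adjusted p 0.0504)). For *Hist1h2br* the value was -2.13 (SE 0.389, adjusted p 0.00224) with both agents against control and -2.27 (SE 0.389, adjusted p 0.00226) against IL-17A. The 8 H2b genes that fell with DOX against control were these and *Hist1h2be*, *Hist1h2bj*, *Hist1h2bk*, *Hist1h2bn*, *Hist1h2bp* and *Hist1h2bq*. *Hist1h2bk*, *Hist1h2bq* and *Hist1h2br* kept this call in every alternative. The calls on *Hist1h2be* (-0.95), *Hist1h2bj* (-1.14) and *Hist1h2bp* (-1.43) were lost without control replicate 1, where *Hist1h2bb* (-1.11) was called. *Hist1h2be* was also not called by voom or edgeR, with only the compared groups in the fit, or without DOX replicate 2 (-1.40), 3 (-1.40) or 4 (-1.48), *Hist1h2bj* by voom, or without control replicate 5 (-1.25) or DOX replicate 3 (-1.40), and *Hist1h2bp* without control replicate 5 (-1.74) or DOX replicate 3 (-1.66). *Hist1h2bn* was not called without control replicate 5 (-1.06) or DOX replicate 1, 2 or 4 (-1.27 each). Over the 17 H2b genes the log2 fold change ranged from -2.49 to -0.01 with DOX against control, from -2.13 to 0.14 with both agents against control and from -2.27 to -0.46 against IL-17A.

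H3 and H4 form the tetramer at the centre of the nucleosome, and many of their genes had low values here. *Hist1h3c* was at 3.38, 2.68 and 4.24 in control and 2.48, 6.13 and 3.69 in IL-17A libraries, 0.161, 3.72, 0.699 and 0.805 with DOX and 3.89, 0.695 and 0.437 with DOX+IL-17A. DOX replicate 2 and DOX+IL-17A replicate 2 were at the level of the controls, and the gene was not called. Without DOX replicate 2 it was called with DOX against control, at -1.52 (adjusted p 0.0385). *Hist1h3b* was at 1.35, 1.77 and 2.83 in control and 2.03, 4.09 and 1.31 in IL-17A libraries, 0.0805, 1.97, 0.559 and 0.179 with DOX and 1.84, 0 and 0.811 with DOX+IL-17A, *Hist2h3c1* at 5.92, 1.46 and 1.297 in control and 1.126, 1.41 and 2.13 in IL-17A libraries, 0.644, 0.657, 0.1398 and 0.894 with DOX and 0.613, 0 and 1.81 with DOX+IL-17A, and *Hist2h3c2* at 5.92, 1.46 and 1.53 in control and 1.126, 0.786 and 1.89 in IL-17A libraries, 0.885, 0.328, 1.26 and 0.626 with DOX and 0.409, 0 and 1.19 with DOX+IL-17A. *Hist2h3c1* and *Hist2h3c2* were lower in each DOX library than in each control, while *Hist1h3b* overlapped, and none of these was called. A value of 3 reads was between 0.183 and 0.613 in these libraries, a limit that covers counting error only, and many H3 values were near it. *Hist1h3a* and *Hist1h3d* had too few reads to be tested.

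The H3 genes that were called are named after their values were seen. *Hist2h3b* was at 3.21, 1.04 and 1.18 in control and 0.789, 0.472 and 0.902 in IL-17A libraries, 0, 0.109, 0.559 and 0 with DOX and 0, 0 and 1.19 with DOX+IL-17A. Its DOX libraries were below the controls, and the log2 fold change was -1.21 (SE 0.381, adjusted p 0.0334). *Hist1h3f* was at 3.21, 0.792 and 1.89 in control and 1.58, 2.67 and 0.164 in IL-17A libraries, 0.0805, 0.438, 0.839 and 0.358 with DOX and 0.204, 0 and 0 with DOX+IL-17A. It fell with both agents against control, at -1.39 (SE 0.442, adjusted p 0.0404). Neither call was stable, and neither gene was tested under the stricter filter. *Hist2h3b* was not called by edgeR (-3.51, adjusted p 0.0889) or DESeq2 (-3.61, adjusted p 0.0541), or without control replicate 1 (-0.88) or 5 (-1.35) or DOX replicate 1 (-1.14), 2 (-1.19) or 4 (-1.14). *Hist1h3f* was not called by voom (-4.24, adjusted p 0.0609), with only the compared groups in the fit, or without control replicate 1 (-1.10) or 5 (-1.37) or DOX+IL-17A replicate 2 (-1.48), 3 (-1.35) or 5 (-1.35), and, through the shared spread, without DOX replicate 2 or 4. Over the 10 H3 genes tested the log2 fold change ranged from -1.21 to -0.08 with DOX against control, from -1.39 to 0.03 with both agents against control and from -1.10 to -0.40 against IL-17A.

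Of the H4 genes, *Hist1h4d* was at 46.0, 5.85 and 4.24 in control and 7.32, 6.29 and 10.1 in IL-17A libraries, 3.06, 1.75, 0.979 and 4.02 with DOX and 3.27, 2.98 and 0.749 with DOX+IL-17A. *Hist1h4i* was at 20.3, 4.69 and 3.77 in control and 6.08, 2.99 and 2.71 in IL-17A libraries, 3.06, 3.28, 1.96 and 3.04 with DOX and 0, 1.59 and 1.69 with DOX+IL-17A. *Hist1h4b* was at 12.3, 3.90 and 3.54 in control and 8.22, 4.56 and 10.2 in IL-17A libraries, 2.09, 2.96, 0.699 and 0.984 with DOX and 0.409, 1.09 and 1.25 with DOX+IL-17A, and *Hist1h4n* at 13.2, 3.90 and 3.77 in control and 5.63, 2.36 and 6.399 in IL-17A libraries, 2.50, 2.19, 1.26 and 0.805 with DOX and 2.45, 0.199 and 1.25 with DOX+IL-17A. Control replicate 1 was highest for each, and the other controls were close to the DOX libraries, with a lowest control of 4.24 and a highest DOX value of 4.02 for *Hist1h4d*, and 3.54 and 2.96 for *Hist1h4b*. With DOX against control the log2 fold change was -1.87 (SE 0.615, adjusted p 0.0402) for *Hist1h4d*, -1.40 (SE 0.443, adjusted p 0.0346) for *Hist1h4b* and -1.41 (SE 0.478, adjusted p 0.0452) for *Hist1h4n*. Without control replicate 1 none of these was called, with -0.88, -0.90 and -0.90. Voom called none of them, nor did limma with only the compared groups in the fit. Scaled by library size only, *Hist1h4d* and *Hist1h4n* were not called, and *Hist1h4n* was not by edgeR or with a pseudocount of 0.1. The log2 fold change of *Hist1h4d* was -2.47 without control replicate 5. *Hist1h4d* also lost its call without DOX replicate 1 (-1.98), 2 (-1.80) or 3 (-1.64), and, through the shared spread with its estimate unchanged, without DOX+IL-17A replicate 3 or IL-17A replicate 2 or 3. *Hist1h4b* lost it without DOX replicate 3 (-1.20) or 4 (-1.28). *Hist1h4n* lost it without DOX replicate 1 (-1.56), 2 (-1.51), 3 (-1.35) or 4 (-1.24), and through the spread without DOX+IL-17A replicate 5 or IL-17A replicate 2. *Hist1h4i* was called in this comparison only by DESeq2 (-1.80, adjusted p 0.0368).

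With both agents against control, *Hist1h4i* was at -2.13 (SE 0.537, adjusted p 0.0142), *Hist1h4b* at -1.83 (SE 0.473, adjusted p 0.0161) and *Hist1h4n* at -1.72 (SE 0.511, adjusted p 0.0306). When control replicate 1 was left out *Hist1h4i* was at -1.45 (adjusted p 0.0371). None of the 3 was called by voom or with only the compared groups in the fit. *Hist1h4i* and *Hist1h4b* were not called without DOX+IL-17A replicate 2 (-1.66 and -1.62). *Hist1h4n* was not called without control replicate 1 (-1.20), DOX+IL-17A replicate 3 (-1.31) or DOX+IL-17A replicate 5 (-1.77). *Hist1h4k* also fell here, at -1.49 (SE 0.474, adjusted p 0.0414). Voom and edgeR did not call it, nor did limma with a pseudocount of 0.1, with only the compared groups in the fit, without control replicate 1 (-0.96) or DOX+IL-17A replicate 2 (-1.12) or 3 (-1.65), or, through the shared spread, without DOX replicate 1 or 4 or IL-17A replicate 2 or 3. *Hist1h4d* was not called with both agents against control by limma or voom, but was by edgeR (-3.04, adjusted p 0.0248) and DESeq2 (-3.07, adjusted p 0.00123). limma called it there without control replicate 3 (-2.34) or 5 (-2.53). Against IL-17A, *Hist1h4b* was at -2.14 (SE 0.473, adjusted p 0.0093). Over the 11 H4 genes the log2 fold change ranged from -1.87 to -0.57 with DOX against control, from -2.13 to -0.28 with both agents against control and from -2.14 to 0.03 against IL-17A.

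**Figure D3:**
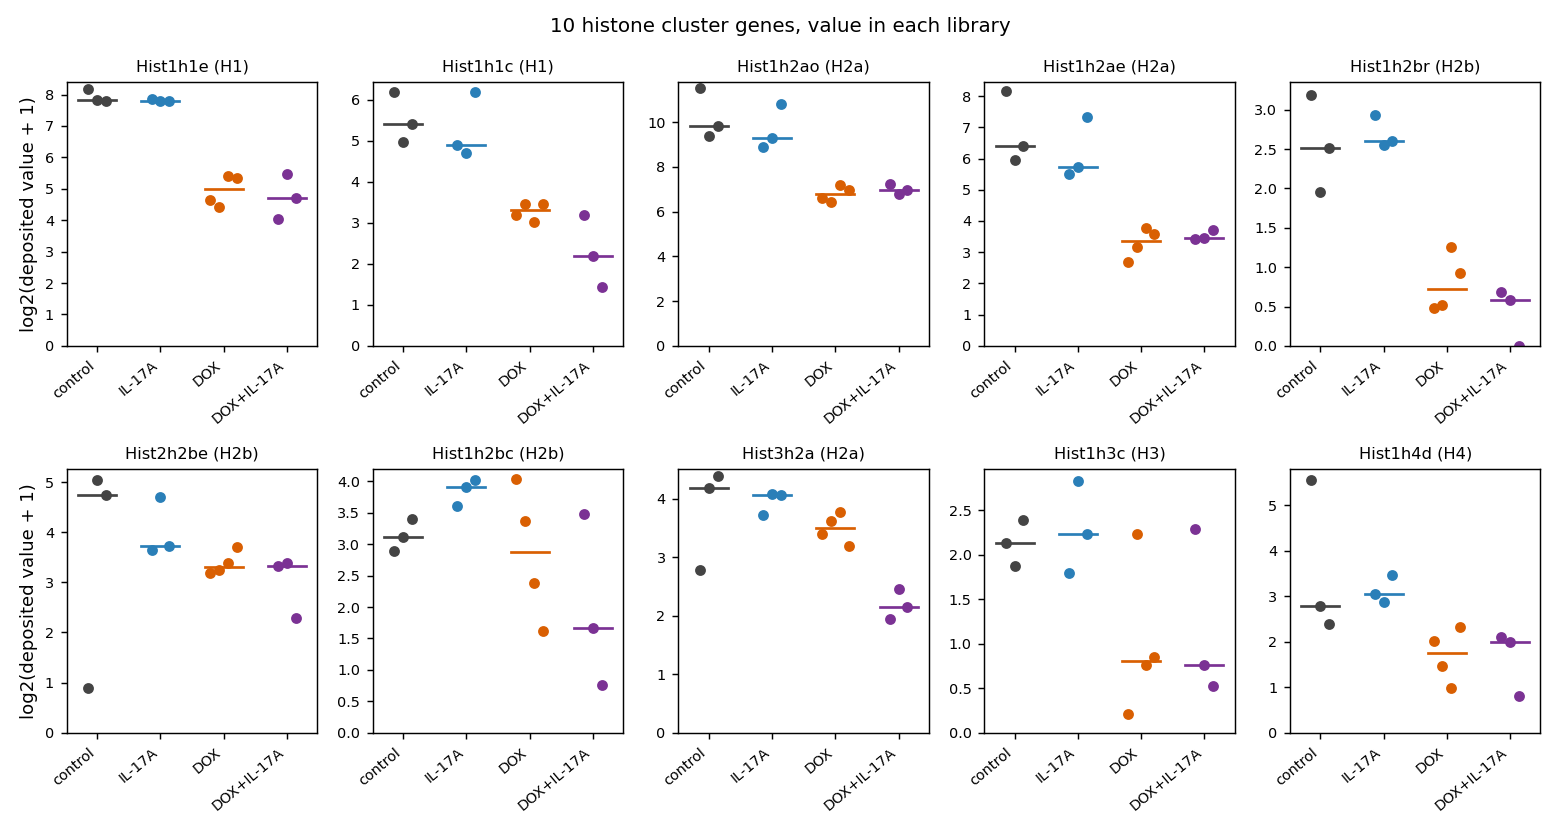
log2(value + 1) in each library for 10 histone genes, with 1 dot per library in the order of replicates and the group median as a bar. *Hist1h1e* and *Hist1h2ao* show a gap between libraries with and without DOX, while *Hist2h2be* in control replicate 1 (value 0.846) and *Hist1h2bc* in DOX replicate 1 (value 15.4) run the other way.

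Adding IL-17A to DOX, compared with DOX alone, asks whether the cytokine altered the response. limma called 0 of 59 histone genes, where 0.438% of all genes were called, 0.325% as lower and 0.114% as higher. At an unadjusted p under 0.05 there were 3 of 59, *Hist1h1b*, *Hist1h1c* and *Hist3h2a*, against 6.35% of all genes, so that count is no result. Voom and edgeR called 0, and DESeq2 called 1, *Hist3h2a* (adjusted p 0.0323). *Hist3h2a* was also called by limma without control replicate 1, at -1.31 (adjusted p 0.0263). The groups did not overlap for 2 genes that were lower and 2 that were higher, against 5.61% and 4.66% of all genes. The median log2 fold change of the histone genes was -0.07 (all genes -0.03), and 35 of 59 estimates were below 0.

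For IL-17A alone against control, limma called 0 of 59, where 0.00812% of all genes were called. Voom, edgeR and DESeq2 called 0, and *Hist1h2ak* was the single gene with an unadjusted p under 0.05, against 3.08% of all genes. Groups did not overlap for 2 lower and 2 higher genes, against 2.87% and 3.17% of all genes. The median was -0.28 (all genes 0.02), and without control replicate 1 it was 0.09. H2a estimates had a median of -0.59, H2b of 0.15. The H2a estimates include control replicate 1, where the H2a sum was 8269.6, against 1878 and 2536 in the other controls. With IL-17A that sum was 1440.5, 1775 and 4686, so the sign of the H2a median is not read as a direction. The test of whether the effect of IL-17A differed with and without DOX called 0 of 59 histone genes, where 0.00% of all genes were called. Unadjusted p was under 0.05 for 3 (*Hist1h1b*, *Hist1h2ak* and *Hist3h2a*), near the 4.51% of all genes, and voom, edgeR and DESeq2 called 0. A p that misses the threshold does not show that values were alike.

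Members share sequence, so reads may not tell them apart. At the read length of 75 bases, 58 of the 61 shared at least 1 stretch with another member in annotated transcripts, and the 3 that shared none were *Hist1h1b*, *Hist2h2bb* and *Hist2h2be*. For 26 members at least 50% of stretches were shared, 10 of them H2a genes. Joining members at that level gave 33 sequence groups, with 10 H2a genes of the Hist1 cluster in a single group that holds *Hist1h2ao*, *Hist1h2ap*, *Hist1h2ae*, *Hist1h2ag* and *Hist1h2ah*. Of the 32 groups with a tested member, 17 held a called member with DOX against control, 16 with both agents against control and 14 against IL-17A. The calls thus stand for fewer separate measurements than genes. How reads that map to several genes were counted is not given in the sources used here. With *Hist1h2ap* and *Hist1h2br* left out as copies, a choice made after seeing the data, the counts were 29, 27 and 26.

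The annotated end was compared with the change. In 23 members the transcripts with a stem-loop end within 100 bases of it, in 19 at least 1 runs on for longer, and in 19 there was no match. Some annotated transcripts may stop before the stem-loop, so the set with no match is not a kind of transcript end. With DOX against control, the median log2 fold change was -1.44 over the 22 tested in the first set, -1.07 over 18 in the next and -1.29 over 19 in the last. In the same order the medians were -3.15, -3.08 and -2.88 within H2a, -1.29, -0.93 and -1.18 within H2b, -0.91, -1.0 and -1.07 within H3 and -1.14, -0.93 and -1.01 within H4, so the order differed between classes. These medians describe the members and were not tested.

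Promoters are shown because 31 of 59 members fell with DOX and because H2a and H2b genes often lie head to head. The windows of 300 bases are from RefSeq (GRCm38.p6), were found for 55 of 61 members, and were searched on both strands. Capitals mark the letters TATAAA of the TATA box, the letters CCAAT of the box of that name and the octamer, which reads ATTTGCAT. Marked stretches do not overlap each other in the windows given. *Hist1h1e* (chr13:23622509-23622808, minus strand) holds the TATA box and the CCAAT box. *Hist1h2ae* (chr13:23571171-23571470, minus strand) holds the letters of all 3, but TATAAA and the octamer only on the opposite strand, printed as TTTATA and ATGCAAAT. They are thus not in the direction of *Hist1h2ae*. *Hist1h4d* (chr13:23581318-23581617, plus strand) holds the letters of the first pair, with CCAAT only on the opposite strand, printed as ATTGG.
Hist1h1e: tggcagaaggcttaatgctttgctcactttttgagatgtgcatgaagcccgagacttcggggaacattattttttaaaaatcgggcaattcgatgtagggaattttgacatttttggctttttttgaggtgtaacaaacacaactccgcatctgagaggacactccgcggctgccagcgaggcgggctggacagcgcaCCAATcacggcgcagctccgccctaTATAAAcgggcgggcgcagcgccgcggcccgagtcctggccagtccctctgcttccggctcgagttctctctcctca
Hist1h2ae: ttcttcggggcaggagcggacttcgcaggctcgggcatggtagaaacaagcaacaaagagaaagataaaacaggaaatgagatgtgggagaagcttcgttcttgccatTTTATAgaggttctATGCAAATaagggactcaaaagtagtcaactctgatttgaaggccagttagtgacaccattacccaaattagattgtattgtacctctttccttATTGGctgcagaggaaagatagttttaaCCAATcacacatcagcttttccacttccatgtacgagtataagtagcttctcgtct
Hist1h4d: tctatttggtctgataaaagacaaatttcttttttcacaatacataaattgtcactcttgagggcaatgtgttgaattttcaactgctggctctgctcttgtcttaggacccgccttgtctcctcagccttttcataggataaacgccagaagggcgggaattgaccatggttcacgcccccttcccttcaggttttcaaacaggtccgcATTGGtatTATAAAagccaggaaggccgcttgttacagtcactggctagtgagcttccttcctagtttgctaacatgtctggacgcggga
TATAAA was in 32 of 55 member windows (58.2%) and in 14.2% of 27025 promoters. CCAAT was in 47 (85.5%), against 37.9% of all, in every H1, H2a, H2b and H3 window and in 3 of 11 H4 windows. ATTTGCAT was in 12 (21.8%), against 1.75% of all, of which 6 were H2a and 6 H2b. A match on either strand was counted. In 8 pairs an H2a and an H2b window share 252 to 279 bases, so the same letters can be counted for both genes. These are counts of windows and not of separate sites. A match is a description, and no match says only that these letters are not in this window.

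In 8 cases an H2a and an H2b gene on opposite strands shared 252 to 279 bases of this window. *Hist1h2ae*, whose window is printed, shares 279 bases with *Hist1h2bg*. *Hist1h2bg* was at 3.72, 0.913 and 1.41 in control and 3.15, 0.786 and 1.15 in IL-17A libraries, 1.21, 0.547, 0.1398 and 0.179 with DOX and 0.818, 1.19 and 0.0624 with DOX+IL-17A. Its control and DOX libraries overlapped, unlike those of *Hist1h2ae*. With DOX against control the H2a gene was called in 7 of the 8 pairs and the H2b gene in 5, both in 4, the H2a gene alone in 3 and the H2b gene alone in 1, *Hist1h2bn* of the pair with *Hist1h2ak*. H2b values were lower, and the log2(value + 1) scale shrinks changes at low values. The H2a gene had the lower log2 fold change in 7 of 8 pairs on that scale, but in 5 with a pseudocount of 0.1 or by voom and in 4 by edgeR or DESeq2.

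**Figure D4:**
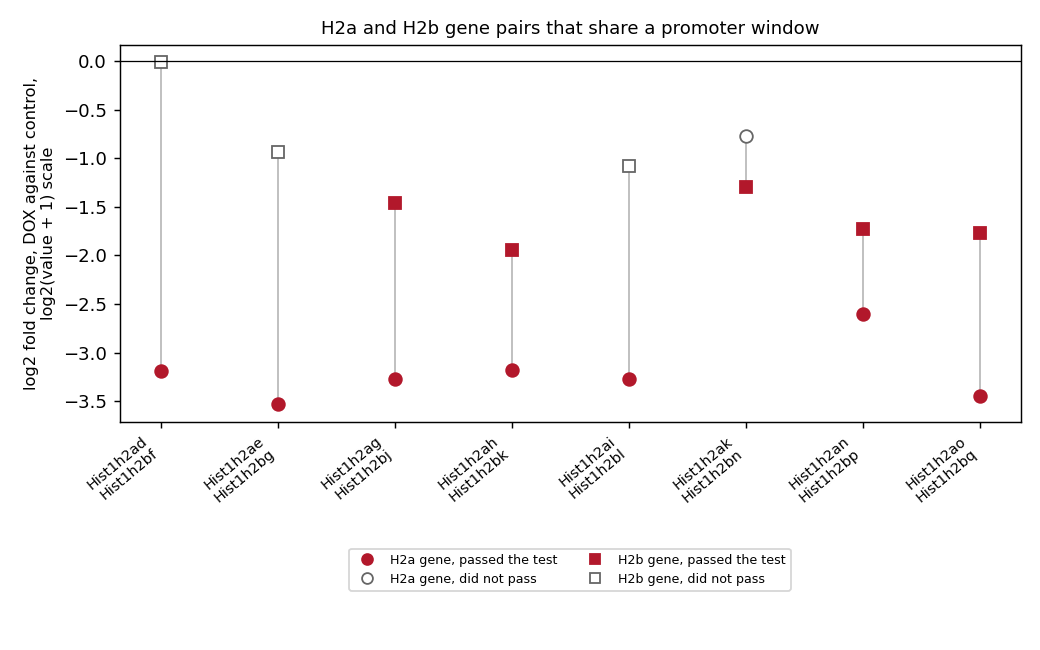
Log2 fold change with DOX against control, on the log2(value + 1) scale, of the 8 pairs of H2a (circle) and H2b (square) genes that share a promoter window, with filled marks for genes that passed the test. On this scale the H2a gene lies below the H2b gene in 7 pairs (4 by edgeR), and the pair of *Hist1h2ak* and *Hist1h2bn* lies the other way.

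Genes that act on histone supply were read from 9 lists, in the same test, where 9.15% of all genes rose and 6.18% fell with DOX against control. Of 7 genes for histone transcription, 3 rose with DOX against control (42.9%) and 0 fell, and the median was 1.28 (all genes 0.09). *Ccne1*, which encodes cyclin E1, was at 14.5, 7.85 and 4.01 in control and 10.7, 4.24 and 10.01 in IL-17A libraries, 16.3, 24.3, 26.4 and 25.4 with DOX and 35.0, 40.5 and 32.5 with DOX+IL-17A. *Ccne2* (cyclin E2) was at 35.5, 15.3 and 10.96 in control and 24.9, 13.8 and 21.8 in IL-17A libraries, 53.8, 35.5, 46.4 and 49.4 with DOX and 23.1, 58.2 and 75.4 with DOX+IL-17A. *Casp8ap2*, which encodes the NPAT partner FLASH, was at 90.3, 70.2 and 54.5 in control and 82.6, 66.2 and 67.4 in IL-17A libraries, 161, 151, 204 and 175 with DOX and 80.8, 150.0 and 167 with DOX+IL-17A. Their DOX libraries were above the controls, except that *Ccne2* in DOX replicate 2 was level with control replicate 1. Log2 fold changes with DOX against control were 1.43 (SE 0.376, adjusted p 0.0143) for *Ccne1*, 1.28 (SE 0.405, adjusted p 0.0341) for *Ccne2* and 1.28 (SE 0.249, adjusted p 0.00255) for *Casp8ap2*. *Ccne1* was not called without control replicate 5 (1.02), and *Ccne2* was not by edgeR or without control replicate 3 (1.16) or 5 (0.94) or DOX replicate 1 (1.20), 3 (1.27) or 4 (1.24). *Npat* itself was at 51.8, 41.3 and 48.9 in control and 48.3, 42.1 and 52.9 in IL-17A libraries, 61.1, 66.8, 66.4 and 60.2 with DOX and 54.4, 62.4 and 74.2 with DOX+IL-17A and was not called.

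In the list for histone mRNA 3′ processing, 2 of 9 rose (22.2%) and 0 fell (median 0.20). *Slbp*, whose protein binds the stem-loop, was at 35.5, 81.3 and 48.3 in control and 124, 95.3 and 33.3 in IL-17A libraries, 112, 161, 182 and 161 with DOX and 169, 173 and 98.7 with DOX+IL-17A. The DOX libraries were all above the controls, and the log2 fold change was 1.53 (SE 0.384, adjusted p 0.0111). *Zfp473*, which encodes a protein linked to the U7 particle that cleaves histone mRNA, was at 0.677, 2.44 and 3.06 in control and 1.35, 1.89 and 7.96 in IL-17A libraries, 7.16, 5.69, 7.97 and 5.90 with DOX and 4.29, 6.06 and 4.24 with DOX+IL-17A. Its DOX libraries were above the controls. The log2 fold change was 1.41 (SE 0.443, adjusted p 0.0327), and it was not called by voom or edgeR, without control replicate 1 (1.03) or without DOX replicate 1 (1.38), 2 (1.48), 3 (1.34) or 4 (1.46). Of 3 histone mRNA turnover genes tested (5 in the list), 0 were called (median 0.53). For general cleavage and polyadenylation it was 0 of 14 (median 0.01), close to the median of all genes.

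Replication-independent histones are encoded outside the clusters, and most of their mRNAs carry poly(A) tails. Of 9 tested (11 in the list), 1 fell with DOX (11.1%) and 0 rose (median -0.31). This was *H1f0*, the linker histone H1.0, at 335, 412 and 411 in control and 239.7, 392 and 391 in IL-17A libraries, 43.1, 51.8, 28.9 and 26.1 with DOX and 42.9, 29.7 and 20.2 with DOX+IL-17A. No library with DOX came near those without it, and the log2 fold change was -3.38 (SE 0.285, adjusted p 4.04e-06), a fold change of 10.4 lower. *H2afx* was at 28.3, 75.7 and 53.6 in control and 55.9, 58.8 and 62.3 in IL-17A libraries, 29.4, 22.4, 25.0 and 23.1 with DOX and 32.9, 20.1 and 11.7 with DOX+IL-17A. Its DOX libraries overlapped the controls, and it was not called with DOX alone. *H2afz* (0 to 4.74) and *H3f3b* (0.677 to 8.04) had low values in all libraries and were not called.

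Of 23 histone chaperones, 3 rose (*Daxx*, *Asf1b* and *Dnajc9*) and 1 fell (median 0.17). These shares (13.04% and 4.35%) are near those of all genes and are no result about chaperones as a list. *Daxx*, a chaperone of the variant H3.3, was at 68.9, 45.2 and 45.4 in control and 64.0, 44.2 and 34.5 in IL-17A libraries, 119.8, 132, 189 and 191 with DOX and 107, 81.8 and 69.3 with DOX+IL-17A, and *Asf1b*, which hands H3 and H4 to newly made DNA, at 28.6, 65.6 and 46.8 in control and 67.2, 61.2 and 40.2 in IL-17A libraries, 120.2, 129, 128 and 143 with DOX and 140.3, 139 and 135 with DOX+IL-17A. Both were higher in every DOX library than in any control, with log2 fold changes of 1.55 (SE 0.261, adjusted p 0.000956) and 1.52 (SE 0.249, adjusted p 0.000825). *Npm1*, a nucleolar chaperone, was at 8554, 6472 and 6872 in control and 3574, 3461, 2945 and 3357 with DOX. The groups did not overlap, and its log2 fold change was -1.12 (SE 0.232, adjusted p 0.0037). Scaled by library size only, *Npm1* was at -0.95 and missed the fold limit.

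Among 29 S phase and G1/S genes, 10 rose with DOX (34.5%, against 9.15% of all genes) and 1 fell (3.45%), and the median was 0.73. With control replicate 1 left out, 9 rose and 0 fell, and the median was 0.89. The summed value of the list was 5017 in that library, above the DOX libraries (3849 to 4037), and 2729 and 2235 in the other controls. *Cdc6*, which loads the replicative helicase, was at 20.47, 21.1 and 16.5 in control and 34.5, 29.1 and 25.3 in IL-17A libraries, 85.7, 71.2, 75.2 and 86.6 with DOX and 82.2, 63.3 and 95.5 with DOX+IL-17A. *Fen1*, the flap endonuclease of lagging strand synthesis, was at 50.8, 36.1 and 16.7 in control and 59.7, 42.6 and 20.3 in IL-17A libraries, 118, 142, 125 and 99.3 with DOX and 109.8, 108 and 42.4 with DOX+IL-17A. For both genes the DOX libraries were all above the controls. *Pola1*, the catalytic subunit of DNA polymerase alpha, was at 255, 114 and 104 in control and 104, 108 and 169 in IL-17A libraries, 84.4, 69.5, 64.3 and 71.0 with DOX and 69.5, 99.7 and 75.1 with DOX+IL-17A, with every DOX library below every control. Log2 fold changes were 1.99 (SE 0.209, adjusted p 2.44e-05) for *Cdc6*, 1.90 (SE 0.408, adjusted p 0.00466) for *Fen1* and -1.0 (SE 0.282, adjusted p 0.0201) for *Pola1*. *Pola1* was not called by voom, with scaling by library size only, or without control replicate 1 (-0.60) or DOX replicate 2 (-0.98), 3 (-0.95) or 4 (-0.99). Of 20 G2 and mitosis genes 0 were called (median 0.21).

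In the cell cycle arrest list, 1 of 10 rose and 1 fell (median 0.51), near the shares of all genes. *Sesn2*, a stress-induced sestrin, was at 1.18, 0.426 and 0.236 in control and 0.113, 0.314 and 0.492 in IL-17A libraries, 5.39, 2.74, 4.19 and 2.68 with DOX and 6.95, 3.18 and 4.24 with DOX+IL-17A, and *Rbl1*, the pocket protein p107, at 56.3, 39.0 and 41.3 in control and 39.8, 32.1 and 42.2 in IL-17A libraries, 24.0, 14.8, 23.9 and 16.4 with DOX and 12.1, 19.2 and 14.0 with DOX+IL-17A. The DOX libraries did not overlap the controls for either, with log2 fold changes of 1.56 (SE 0.355, adjusted p 0.00642) and -1.18 (SE 0.260, adjusted p 0.00548). *Cdkn1a*, which encodes the CDK inhibitor p21, was at 31.3, 29.0 and 28.8 in control and 54.1, 85.0 and 119 in IL-17A libraries, 50.7, 42.5, 66.5 and 38.9 with DOX and 64.6, 64.8 and 94.3 with DOX+IL-17A and was not called with DOX against control.

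With both agents against control, where 6.95% of all genes rose and 5.95% fell, the numbers that rose and fell were 2 and 0 for histone transcription, 1 and 0 for 3′ processing, 0 and 2 for replication-independent histones, 3 and 2 for chaperones, 7 and 0 for S phase, 1 and 0 for cleavage and polyadenylation, and 2 and 1 for arrest. Against IL-17A, where 4.92% of all genes went each way, they were 1 and 0, 0 and 0, 0 and 2, 1 and 1, 5 and 0, 0 and 0, and 1 and 2 in the same order. Turnover and mitosis genes had 0 in both. In DOX+IL-17A against DOX, in IL-17A against control and in the test of the difference, 0 genes of these lists were called by limma. Among the other tools, DESeq2 called 1 arrest gene in IL-17A against control, and there were 0 other calls in these 3.

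**Figure D5:**
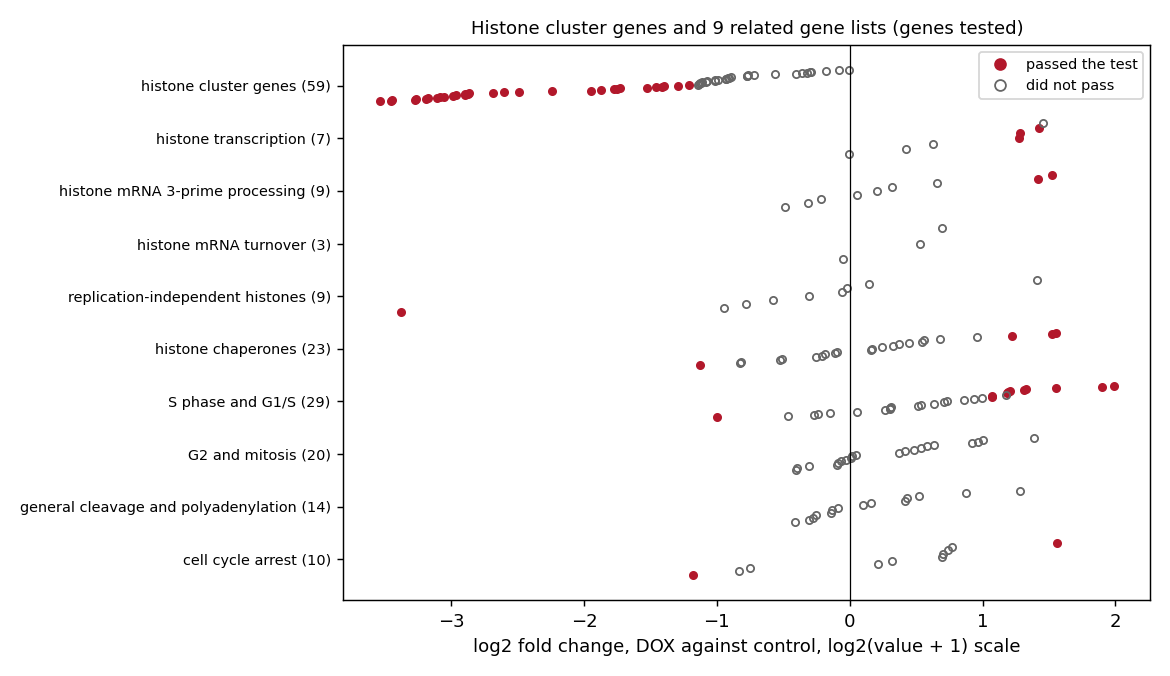
Log2 fold change with DOX against control, on the log2(value + 1) scale, of the histone cluster genes and of the genes tested in 9 related lists (1 dot per gene), with filled dots for genes that passed the test. The histone genes lie at or below 0 (median -1.29) while the S phase list has a median of 0.73.

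These values come from a single cell line at 1 time point, and the p-values measure the spread between these libraries. The labels do not describe the libraries as separate cultures, while the authors' statistical methods speak of biological replicates for their data in general. All tests were 2-sided. The libraries read adenylated 3′ ends, so most histone mRNA that ends at the stem-loop would not be seen, and a change in adenylation and a change in amount cannot be told apart.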

How the data were processed

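The histone members, the gene lists and the markers were chosen with earlier results of these data known. The authors aligned reads to mm10 with STAR, counted them with featureCounts and normalized them by TMM, and the deposited signal is that normalized count. A second, identical entry was dropped, leaving 13222 genes. Dividing each library by its smallest step recovered whole reads for 100% of the signal values, with a tolerance of 0.1 read.

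limma with trend was run on log2(value + 1) of all 13 libraries with condition as the only factor, over 12319 genes kept by filterByExpr. P-values were adjusted by Benjamini-Hochberg over these genes, and calls required adjusted p < 0.05 together with more than 2-fold change (for the difference of differences, adjusted p < 0.05). On the recovered reads with DOX against control, edgeR's quasi-likelihood test called 1753 of all genes and DESeq2 2121, beside 1888 by limma. Replicates differed by more than counting noise. Equal replicate numbers were taken to pair libraries only between DOX+IL-17A and IL-17A, where all 3 pairs correlated above 0.1 with group means removed, a pairing read from the data and not from the labels. The code was tested on simulated data.

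Values in each library are given for the 4 members of each class with the highest mean, and for the 3 called members that fell most and that rose most in each comparison of DOX with no DOX. Each gene list contributed its 2 highest and 2 lowest called log2 fold changes with DOX against control, and always named were *Slbp*, *Npat*, *Casp8ap2*, *Cdkn1a*, *H2afx*, *H2afz* and *H3f3b*. Members named beyond this were chosen after their values were seen.

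Alternatives changed 1 choice at a time: voom with limma, edgeR's quasi-likelihood test and DESeq2 on recovered reads, scaling by library size only, no filter, a stricter filter (mean of 10 reads), pseudocount 0.1, only the compared groups in the fit, blocking on replicate number, no fold limit, and each library left out in turn. Counting nearly equal members once (within 1% of reads) was added after seeing the data. Stretches of 75 bases were compared between GENCODE M21 transcripts, and promoters came from RefSeq. Software was limma 3.58.1, DESeq2 1.42.0 and edgeR 4.0.16 in R 4.3.3, and pandas 2.3.3 with numpy 2.4.6 in Python 3.11.15.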

Additional observations from a re-analysis of the deposited data

Results flagged for a closer look

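Within the 4 DOX libraries, 48 values were compared for a library far from the others, and 3 passed the limit, where chance alone passes about 5% of groups. DOX replicate 1 was far above the others in the summed value of red blood cell markers (66.5) and in that of skeletal muscle markers (189.8). DOX replicate 4 was the only one of the 4 with a liver marker value above 0, at 0.268, which is 3 reads. As the other DOX libraries were at 0, any read there would pass the limit, so this is no result. The same marker was at 2.25 in DOX+IL-17A replicate 2 and 1.58 in IL-17A replicate 2. Causes were not tested. The histone sum of DOX replicate 1 was 409.8, within the range of the other DOX libraries (346.6 to 514.8).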

How the results depend on the processing

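The direction of the histone result held under the alternatives run. No histone gene was called as higher in any comparison or alternative. Counts with DOX against control were 25 to 33 with each library left out and 25 to 32 otherwise (31 reported). With both agents against control they were 25 to 32 and 20 to 31 (29 reported), and against IL-17A 23 to 35 and 23 to 32 (28 reported). For DOX+IL-17A against DOX the count was 0 to 1 with libraries left out, 1 without control replicate 1, and 1 by DESeq2. IL-17A against control and the difference of differences gave 0 by limma and all alternatives.

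Medians of the histone genes moved by more than the spread between replicates where changes at low values were shrunk less. With DOX against control (-1.29) they were -2.54 by voom, -2.49 by edgeR, -2.66 by DESeq2 and -2.41 with a pseudocount of 0.1. With both agents against control (-1.48) they were -2.64, -2.74, -2.79 and -2.74 in that order. Against IL-17A (-1.38) they were -2.67, -2.02, -2.0 and -2.49, and -1.70 with the stricter filter, which tests 49 of the members. A pseudocount of 1 shrinks changes of genes with low values by construction. With libraries left out the medians ran from -1.47 to -1.11, from -1.65 to -1.20 and from -1.65 to -1.27, and from -0.15 to 0.01 for DOX+IL-17A against DOX.

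Scaling by library size only moved the median of all genes from 0.09 to 0.24, from 0.04 to 0.20 and from 0.02 to 0.22 in the comparisons of DOX with no DOX, and 29, 29 and 27 histone genes were called as lower. The labels do not say that equal replicate numbers pair libraries. With group means removed, 8 of 13 same-numbered pairs correlated above 0.1 (median 0.17), against 13 of 50 other pairs (median -0.03), and 7 of 13 libraries correlated best with one of their own number. All 3 pairs passed 0.1 between DOX+IL-17A and IL-17A, and 1 of 2 in each other comparison, so the number was taken as a pairing only there. The block was nevertheless fitted to all 13 libraries, control and DOX included. With the number as a replicate block the counts were 26, 23 and 32, and the medians -1.34, -1.38 and -1.38. Calls not made under the block were *Hist1h2bj*, *Hist1h2bn*, *Hist1h2bp*, *Hist1h4b*, *Hist2h3b*, *Ccne1* and *Pola1* with DOX against control, and *Hist1h2ak*, *Hist1h2bj*, *Hist2h2ac*, *Hist1h3f*, *Hist1h4i* and *Hist1h4k* with both agents against control. Against IL-17A no call was lost and 4 were added.

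Of the 88 calls on histone genes in the 3 comparisons of DOX with no DOX, 62 were kept in every alternative that tested them, 9 were lost in 1 to 4 and 17 in 5 or more. With the called genes named from lists, 2074 of 2261 alternative values kept their call, 187 lost it and 0 changed direction. Under the stricter filter some members had no value. Many H2b, H3 and H4 genes had few reads per library, and how depth bears on their calls was not tested.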
